A study of Mus musculus with 12 samples.

Results

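Before a cell divides it copies its DNA once, with a set of proteins that load a helicase at origins, unwind the strands, hold the polymerases to the template with a sliding clamp, join the fragments of the lagging strand and repackage the copies into chromatin. The enzymes of nucleotide supply make the deoxynucleotides that the polymerases use. Most genes of this machinery are transcribed at the border of G1 and S phase, largely through E2F factors, so that in cultured fibroblasts their transcripts follow the share of cells that are cycling.

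The genes described here were 47 genes of DNA replication and nucleotide supply. They were listed by name and function, with earlier results of these data known, and all 47 were among the 10697 genes measured. They comprised 17 genes of origin licensing and the helicase, 6 of the clamp and its loader, 9 polymerase and primase subunits, 5 of strand processing and RPA, 5 of nucleotide supply, and 5 of chromatin assembly and maintenance DNA methylation. Wild-type primary mouse adult fibroblasts (MAFs), grown out of biopsies of C57BL6/j mice, were exposed for 24 h to thymol, a plant phenol, at 100 µM dissolved in DMSO, or to the same volume of DMSO alone. Each group held 6 libraries prepared with the QuantSeq 3′ kit, in which priming from the poly(A) tail places reads near the transcript end, so that the read number of a gene does not grow with its length. Whether the 6 libraries of a group came from separate animals or cultures was not stated, so the p-values measure only the spread between these libraries. The comparison asked which of these transcripts differed after thymol.

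The libraries held between 5435985 and 9049796 reads over the retained genes, and depth did not separate the groups (exact two-sided permutation test, p = 0.396). Fibroblast markers were high, with 14 of 15 measured at a median of 8.82 log2 CPM (the log2 of reads scaled to a common library size). All 20 macrophage markers were measured as well, at a median of 8.23, and none of the 10 T and B cell markers was in the table. Averaged over a library, the macrophage list was at 8.39 to 8.53 with thymol and 8.41 to 8.48 with DMSO. The fibroblast list was at 8.60 to 8.67 with thymol and 8.70 to 8.81 with DMSO, so that these ranges did not overlap. In this list 10 of 14 genes had lower means and 4 higher, and 2 were called in limma, both lower (14.3%, beside 2.22% of all genes). In the macrophage list 10 of 20 genes had higher means and 10 lower, with 1 called higher and 1 called lower (10%). The part of either cell type in the differences below was not tested.

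For 4 genes the 250 bases before the RefSeq transcript start (build GRCm38.p6) are printed 5′ to 3′ on the strand of the gene. Pcna and Asf1b are shown because they passed the threshold in the comparison, and Rfc1 and Mcm6 because they passed it only under some of the alternative settings. Capitals mark CCAAT boxes (CCAAT, here always as its reverse complement ATTGG) and, in Mcm6, also E2F core letters. The windows are chr2:132253181-132253430 on the minus strand for Pcna, chr8:83955444-83955693 on the plus strand for Asf1b, chr5:65335640-65335889 on the minus strand for Rfc1 and chr1:128359706-128359955 on the minus strand for Mcm6. The GENCODE vM21 gene begins inside the window for Pcna, Asf1b and Rfc1.
Pcna: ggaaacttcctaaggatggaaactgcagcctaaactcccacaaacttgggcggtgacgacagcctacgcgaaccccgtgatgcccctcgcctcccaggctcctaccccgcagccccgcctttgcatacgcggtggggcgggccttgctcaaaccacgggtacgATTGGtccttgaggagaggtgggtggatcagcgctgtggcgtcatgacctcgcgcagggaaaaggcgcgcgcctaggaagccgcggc
Asf1b: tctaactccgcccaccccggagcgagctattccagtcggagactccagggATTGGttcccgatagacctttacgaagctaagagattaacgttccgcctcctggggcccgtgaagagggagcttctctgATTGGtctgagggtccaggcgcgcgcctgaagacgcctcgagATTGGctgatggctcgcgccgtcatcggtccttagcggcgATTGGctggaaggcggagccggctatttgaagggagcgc
Rfc1: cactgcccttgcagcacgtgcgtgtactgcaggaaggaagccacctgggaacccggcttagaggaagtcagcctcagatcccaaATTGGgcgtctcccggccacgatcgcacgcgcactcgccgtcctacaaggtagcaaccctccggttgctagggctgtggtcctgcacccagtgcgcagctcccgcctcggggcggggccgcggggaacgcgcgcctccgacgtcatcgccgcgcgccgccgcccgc
Mcm6: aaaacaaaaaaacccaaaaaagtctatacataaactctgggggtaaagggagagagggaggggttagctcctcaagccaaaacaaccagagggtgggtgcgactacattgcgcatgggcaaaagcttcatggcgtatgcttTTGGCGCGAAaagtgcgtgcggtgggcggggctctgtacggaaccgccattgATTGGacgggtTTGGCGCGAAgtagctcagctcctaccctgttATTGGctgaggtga

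Pcna, whose product is the ring-shaped clamp that keeps polymerases on DNA, and Asf1b, a histone chaperone that hands newly made histones to the assembly factors behind the fork, rose with thymol. They were the only members past an adjusted p-value of 0.05 in limma, so that 2 of 47 members were called, beside 2.22% (238) of all 10697 genes. Both were higher, the direction of 0.654% of all genes, and no member was called lower, the direction of 1.57% of all genes. The voom variant of limma on the recovered reads called the same 2 members and no other. Without the mean-variance trend of the fit 0 members were called, and leaving out 1 library gave 0 to 3. With so few calls, the count by itself does not set these genes apart from the table. The direction of the members was more uniform than that of the table. In total, 40 of 47 members (85.1%) had a higher mean with thymol, against 50.9% of all genes, and the median log2 fold change was 0.18 for the members and 0.0026 for all genes. At an unadjusted p-value under 0.05, 13 members were higher and 0 were lower, where 5.35% of all genes were higher and 6.44% were lower. These genes are known to be transcribed together and were measured in the same libraries, so they do not count as 47 separate observations. The list was also drawn up with earlier results of these data known, so these shares describe the members and test nothing. In RNA from whole cultures, more cells in S phase and more transcript per cell cannot be told apart.

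**Figure D1:**
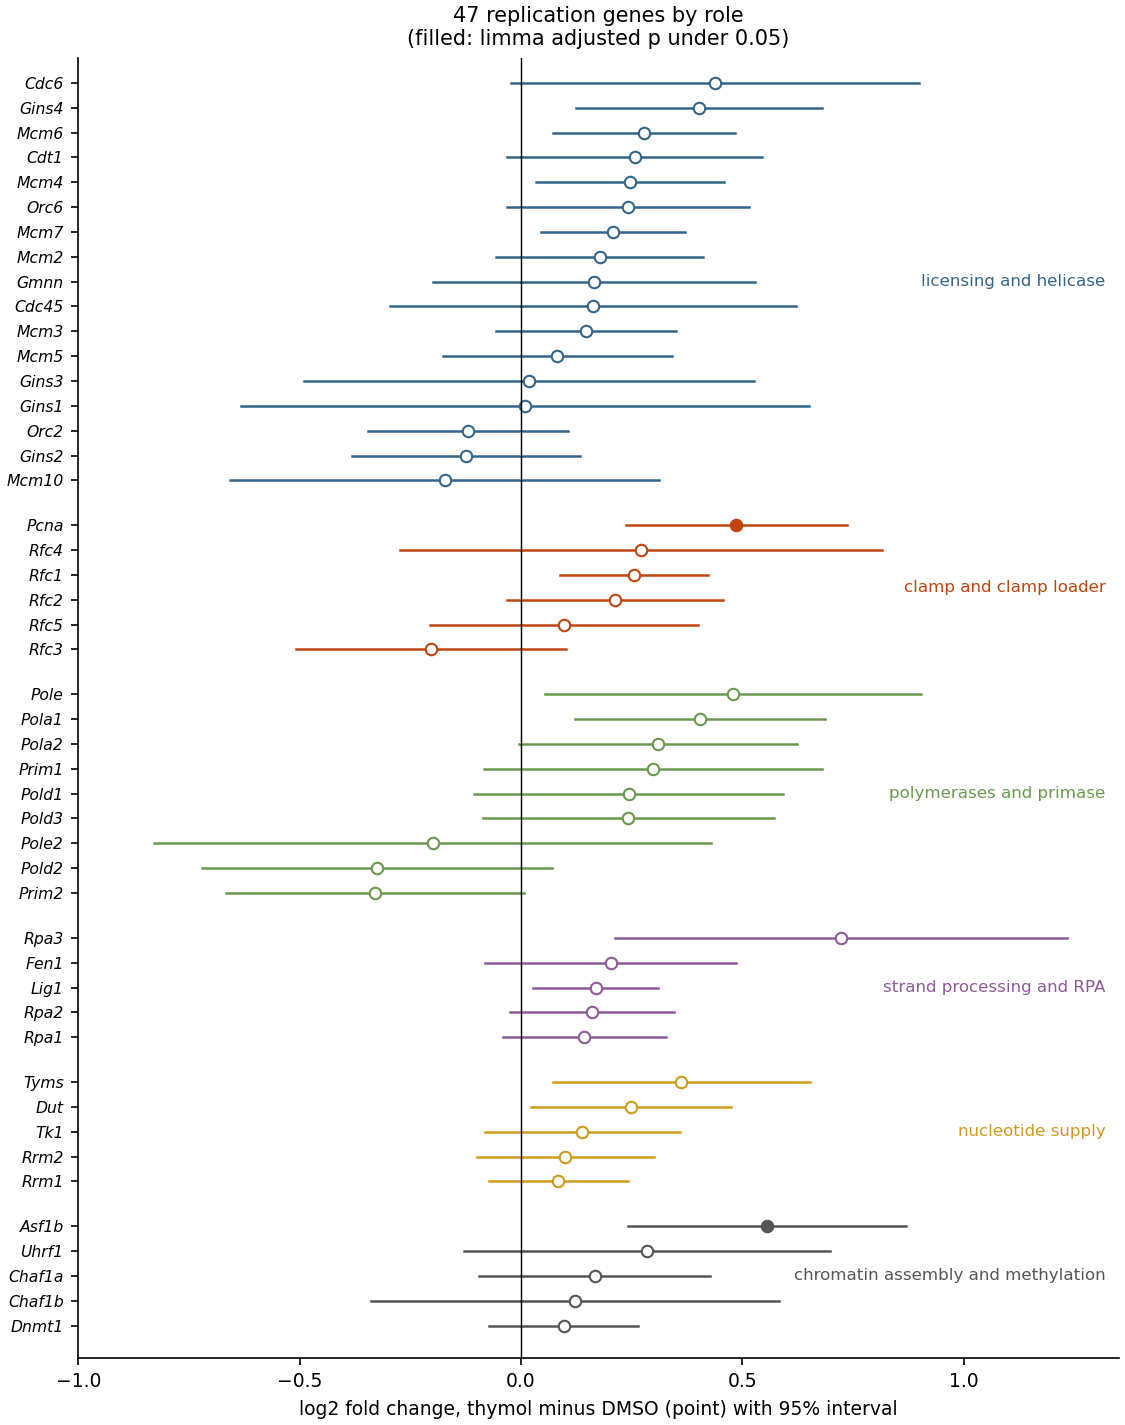
Difference between thymol and DMSO for each of the 47 genes, as the log2 fold change (horizontal axis) with its 95% interval from limma, grouped and coloured by role. Points to the right of the line were higher with thymol (40 of 47). Filled points mark Pcna and Asf1b, which passed an adjusted p-value of 0.05.

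The shift was small for the whole set and visible in each thymol library. The mean of the 47 genes was lowest at 4.56, had a median of 4.65 and was highest at 4.74 log2 CPM in the thymol libraries, and was 4.44, 4.49 and 4.51 in the DMSO libraries. Every thymol library therefore lay above every DMSO library, with thymol replicate 4 nearest to the DMSO range. The group means were 4.65 ± 0.071 and 4.48 ± 0.030 (SD, n = 6 each), a difference of 0.17 on the log2 scale. The members took 0.166% ± 0.00926 of the recovered reads in thymol and 0.147% ± 0.00325 in DMSO libraries (SD, 6 of each), and here too the ranges of 0.154% to 0.175% and 0.143% to 0.151% did not overlap. For no single member did the 6 thymol values all lie on one side of the 6 DMSO values, which they did for 1.68% (180) of all genes. For Gins4, Pcna, Pola1, Dut and Asf1b 5 thymol libraries lay above every DMSO library. How many of all genes show this was not counted, so it does not set these members apart. In the other direction no member had more than 3 thymol libraries below every DMSO library, a number reached by Rfc3, Prim2 and Pold2.

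**Figure D2:**
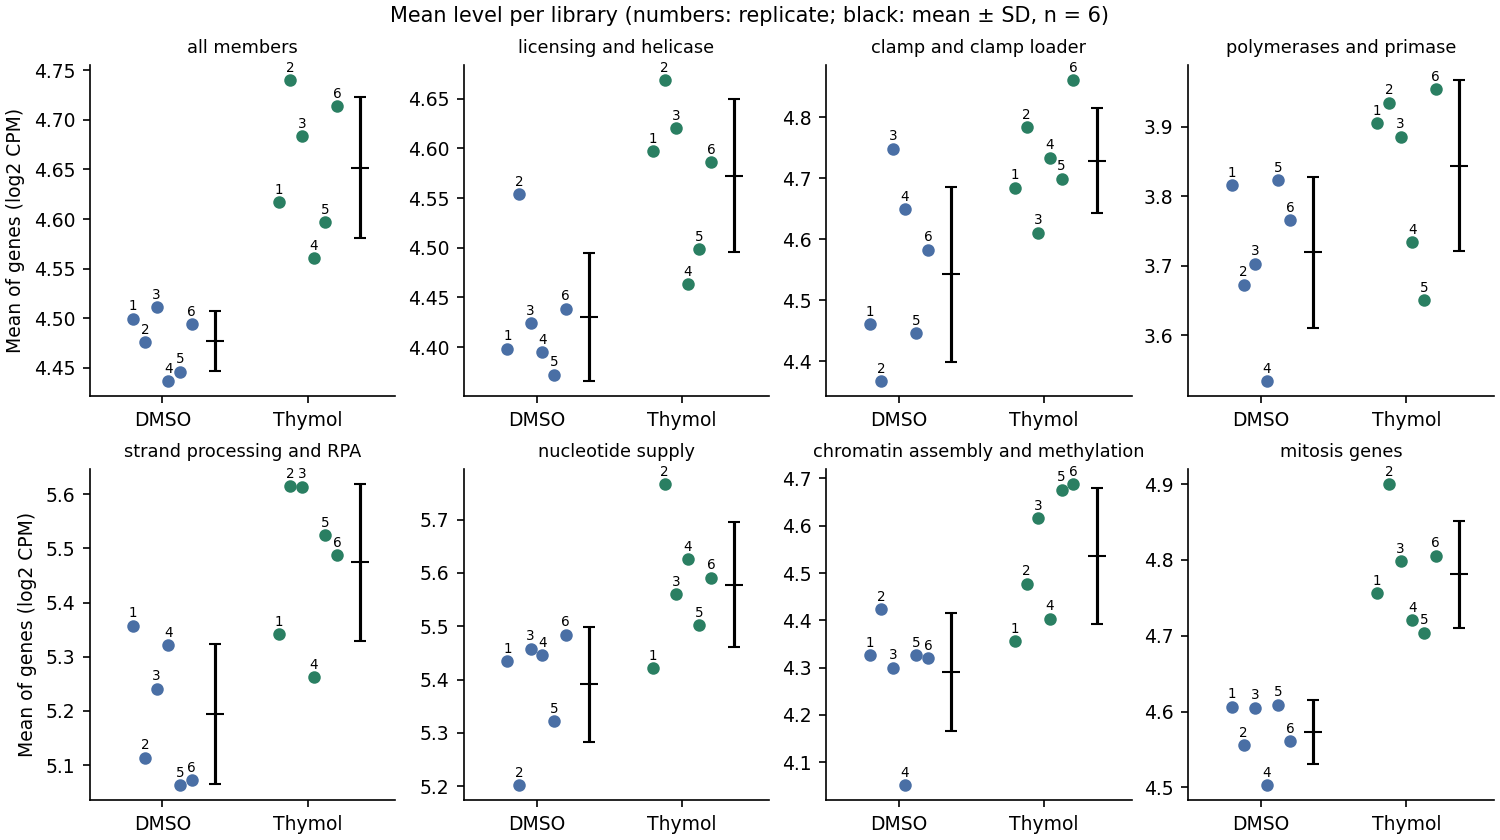
Mean expression (vertical axis, log2 CPM, a separate scale in each panel) of all 47 genes, of each of the 6 roles and of the mitosis list in each library. Points are libraries with their replicate numbers, and bars are the mean ± SD of 6 libraries. The 6 thymol libraries lie above the 6 DMSO libraries for all members together and for the mitosis list, and overlap with them in each of the 6 roles.

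Pcna is the clamp on which the other replication factors assemble. The gene lies at chr2:132249162-132253314 (GENCODE vM21, GRCm38, minus strand). Its expression was 4.93 at the lowest, 5.20 at the median and 5.27 at the highest with thymol, and 4.37, 4.69 and 4.97 with DMSO (log2 CPM). Thymol replicate 1 was the lowest of its group and lay below DMSO replicate 6, while the other 5 thymol libraries were above every DMSO library. The means of 5.17 ± 0.12 and 4.68 ± 0.24 (SD, n = 6 each) gave a log2 fold change of 0.49 ± 0.12 (SE), with a 95% interval of 0.24 to 0.74 and an adjusted p-value of 0.0175 in limma. This is a 1.40-fold higher level, from a mean of 233 reads per thymol library and 182 per DMSO library. The call was kept in 9 of the 12 fits that left out 1 library and lost without thymol replicate 3 (log2 fold change 0.47, adjusted p = 0.0527), DMSO replicate 1 (0.44, adjusted p = 0.0591) or DMSO replicate 2 (0.43, adjusted p = 0.0655). Pcna has processed copies elsewhere in the genome, Pcna-ps1 on chromosome X and Pcna-ps2 on chromosome 19, and neither was in the table. The same holds for Tyms and its copy Tyms-ps on chromosome 10. How the counting treated reads that match several copies was not stated.

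Asf1b lies at chr8:83955507-83970197 on the plus strand. Its expression with thymol was 4.20, 4.53 and 4.76 (lowest, median and highest, log2 CPM), and with DMSO it was 3.56, 4.03 and 4.26. Again 5 thymol libraries were above every DMSO library, and thymol replicate 4 lay among the upper DMSO values. The log2 fold change was 0.56 ± 0.16 (SE), with a 95% interval of 0.24 to 0.87 and an adjusted p-value of 0.0395 in limma, a 1.47-fold higher level. Mean expression was 4.53 ± 0.20 in thymol and 3.97 ± 0.29 in DMSO libraries (SD, 6 of each), from 152 and 111 reads per library. The size of the difference hardly depended on any library, and was lowest at 0.47 when DMSO replicate 2 was left out and highest at 0.62 when thymol replicate 4 was, but the call was kept in only 4 of the 12 fits that left out 1 library. These 4 were the fits without thymol replicate 4 and without DMSO replicates 1, 5 or 6.

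**Figure D3:**
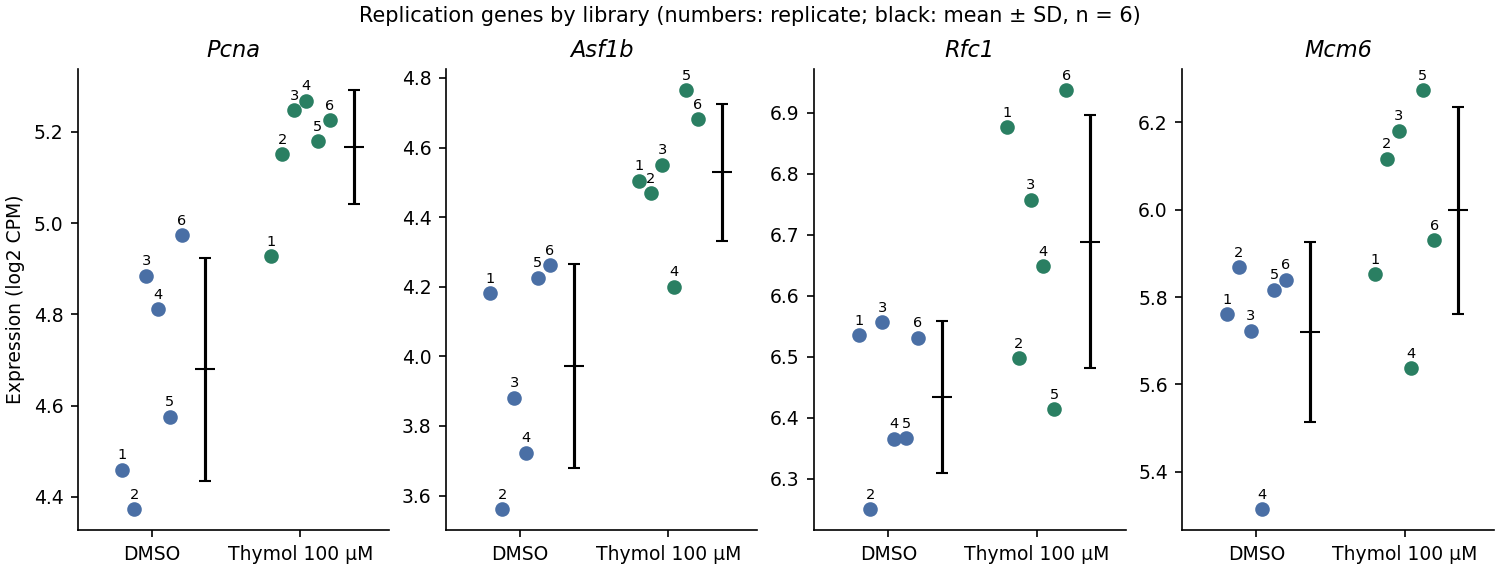
Expression (vertical axis, log2 CPM, a separate scale in each panel) of Pcna, Asf1b, Rfc1 and Mcm6 in each library. Points are libraries with their replicate numbers, and bars are the mean ± SD of 6 libraries. In Pcna and Asf1b 5 thymol libraries lie above every DMSO library, and in Rfc1 and Mcm6 4 do.

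The licensing and helicase genes build the replicative helicase. The origin recognition complex (Orc2 and Orc6 here) marks origins, Cdc6 and Cdt1 load the MCM ring, geminin (Gmnn) holds Cdt1 back, and Cdc45 and the GINS complex turn the ring into an active helicase. Of these 17 genes 14 had a higher mean with thymol and 0 were called in limma (4 higher and 0 lower at an unadjusted p-value under 0.05). Averaged over the role, expression was 4.57 ± 0.077 in thymol and 4.43 ± 0.065 in DMSO libraries (SD, 6 of each), and 4 thymol libraries lay above every DMSO library. All 6 subunits of the MCM ring, Mcm2 to Mcm7, had higher means, with log2 fold changes from 0.08 for Mcm5 to 0.28 for Mcm6. The ring averaged between 5.51 and 5.95 in thymol libraries and between 5.52 and 5.64 in DMSO libraries, with thymol replicate 4 the lowest of all 12.

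Mcm6, a subunit of the ring, was 5.64, 6.02 and 6.27 with thymol and 5.31, 5.79 and 5.87 with DMSO (lowest, median and highest, log2 CPM). DMSO replicate 4 stood far below the other DMSO libraries, and thymol replicates 1 and 4 lay within the DMSO range. The log2 fold change was 0.28 ± 0.10 (SE), with an adjusted p-value of 0.186 in limma that fell to 0.0493 without thymol replicate 4. Mcm7, another subunit of the ring, had a log2 fold change of 0.21 ± 0.081 (SE, adjusted p = 0.230). The 3′ end of Mcm7 overlaps exons of Cops6. Such an overlap within the last 500 bases was found for 7 members (also Gins2, Orc2, Rfc4, Rfc5, Fen1 and Chaf1a), and the strand setting of the counting is not given in the sources used here, so that reads of these pairs may be mixed. Gins4, a GINS subunit, was 4.37, 4.82 and 5.12 with thymol and 4.29, 4.40 and 4.69 with DMSO, a log2 fold change of 0.40 ± 0.14 (SE, adjusted p = 0.138). The other GINS estimates were lower, at 0.01 ± 0.32 for Gins1, 0.02 ± 0.25 for Gins3 and -0.12 ± 0.13 for Gins2 (SE). The 95% intervals of Gins1 (-0.63 to 0.65) and Gins3 (-0.49 to 0.53) included the estimate of Gins4, and that of Gins2 (-0.38 to 0.13) did not. A difference between these subunits was not tested. Mcm10, which helps to fire the loaded helicase, had the lowest value of the role, -0.17 ± 0.24 (SE), from a gene with as few as 26 reads in a library. The remaining genes of the role lay between -0.12 for Orc2 and 0.44 for Cdc6. The Cdc6 value depended on DMSO replicate 4, which held 25 reads against 63 to 104 in the other DMSO libraries, and was 0.18 without it.

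Replication factor C (Rfc1 to Rfc5) opens the clamp and places it on DNA. Beside Pcna, 4 of its 5 subunits had higher means and 0 were called in limma (1 higher and 0 lower unadjusted). Rfc1, the large subunit, was 6.41, 6.70 and 6.94 with thymol and 6.25, 6.45 and 6.56 with DMSO (lowest, median and highest, log2 CPM), with thymol replicates 2 and 5 inside the DMSO range. Its log2 fold change was 0.25 ± 0.083 (SE), with an adjusted p-value of 0.104 in limma that was 0.0272 without thymol replicate 5. With the replicate numbers of the labels as a block it was called as well (adjusted p = 0.0405), so that this fit called 3 of 47 members beside 3.1% of all genes. The small subunits were spread on both sides of 0. Rfc2 was at 0.21 ± 0.12 (SE, adjusted p = 0.522), Rfc4 at 0.27, Rfc5 at 0.10 and Rfc3 at -0.20 ± 0.15 (SE, adjusted p = 0.674). The 95% intervals of all 5 subunits included 0 except that of Rfc1, which ran from 0.09 to 0.42. These intervals overlapped, with an upper bound of 0.10 for Rfc3, and a difference between the subunits was not tested.

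The polymerases and primase were the least uniform role, with 6 of 9 genes higher and 0 called in limma (2 higher and 0 lower unadjusted). Polymerase alpha and primase, which start each new strand, comprised Pola1, Pola2, Prim1 and Prim2. Pola1, the catalytic subunit of polymerase alpha, was 4.41, 4.67 and 4.89 with thymol and 3.99, 4.21 and 4.60 with DMSO, so that 5 thymol libraries were above every DMSO library. Its log2 fold change was 0.40 ± 0.14 (SE, adjusted p = 0.146). Pola2, its regulatory subunit, was at 0.31 ± 0.16 (SE, adjusted p = 0.431). Prim2, the large primase subunit, had the lowest log2 fold change of all 47 genes, -0.33 ± 0.17 (SE), with a 95% interval of -0.67 to 0.0062 and an adjusted p-value of 0.434. Its values were 3.58, 4.18 and 4.55 with thymol and 4.09, 4.48 and 4.71 with DMSO. In 3 thymol libraries Prim2 was under the DMSO minimum, and the remaining thymol values fell inside the DMSO range. Pole, the catalytic subunit of the leading-strand polymerase epsilon, was at 0.48 ± 0.21 (SE, adjusted p = 0.323). Its partner Pole2, with 17 to 44 reads per library, was at -0.20 ± 0.31 (SE). In polymerase delta, which copies the lagging strand, Pold1 was at 0.24 ± 0.17, Pold3 at 0.24 ± 0.16 and Pold2 at -0.32 ± 0.20 (SE). The 95% intervals of Pole2, Pold1, Pold2 and Pold3 all included 0, and differences between subunits were not tested.

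All 5 genes of strand processing and RPA had higher means, and 0 were called in limma (2 higher and 0 lower unadjusted). RPA coats single-stranded DNA, and its small subunit Rpa3 had the largest log2 fold change of the 47 genes, 0.72 ± 0.25 (SE). Its expression was 2.65, 3.01 and 3.48 with thymol and 1.92, 2.31 and 2.80 with DMSO, and 4 thymol libraries were above every DMSO library. With 28 to 93 reads per library, the adjusted p-value was 0.151 in limma, and a log2 fold change of 0.88 would have been needed for a call at this spread. Rpa1 and Rpa2, the other subunits, were at 0.14 ± 0.092 (SE, adjusted p = 0.598) and 0.16 ± 0.092 (SE, adjusted p = 0.523). Lig1, the ligase that seals the fragments of the lagging strand, was the most highly counted member with 755 to 1261 reads per library, and the most precisely measured. It stood at 7.01, 7.25 and 7.28 with thymol and 6.83, 7.04 and 7.19 with DMSO, a log2 fold change of 0.17 ± 0.070 (SE, adjusted p = 0.277). Fen1, the flap nuclease that trims these fragments, was at 0.20.

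All 5 genes of nucleotide supply had higher means, and 0 were called in limma (2 higher and 0 lower unadjusted). Tyms, which makes thymidylate from deoxyuridylate, was 4.42, 4.64 and 4.75 with thymol and 3.85, 4.22 and 4.67 with DMSO, a log2 fold change of 0.36 ± 0.14 (SE, adjusted p = 0.247). Dut, the dUTPase that keeps uracil out of DNA, was at 0.25 ± 0.11 (SE, adjusted p = 0.350), with 5 thymol libraries above every DMSO library. The subunits of ribonucleotide reductase, the enzyme that reduces ribonucleotides to deoxyribonucleotides, were at 0.08 ± 0.078 for Rrm1 (SE, adjusted p = 0.770) and 0.10 for Rrm2. The upper 95% bounds were 0.24 for Rrm1 and 0.30 for Rrm2, below a 1.5-fold rise, which is 0.58 on the log2 scale. Tk1, the salvage kinase for thymidine, was at 0.14 ± 0.11 (SE, adjusted p = 0.706). Averaged over the role, expression was lowest of the thymol libraries in replicate 1, which lay among the DMSO libraries, and the other 5 thymol libraries lay above every DMSO library.

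The genes of chromatin assembly and methylation act behind the fork. Beside Asf1b, the other 4 had higher means and were not called in limma, also not at an unadjusted p-value under 0.05. Chaf1a, the large subunit of the CAF-1 histone chaperone, was at 0.17 ± 0.13 (SE, adjusted p = 0.701), and Chaf1b, its partner, at 0.12. Uhrf1, which recognises hemimethylated DNA, was at 0.29 ± 0.21 (SE, adjusted p = 0.660). Dnmt1, the methyltransferase that copies methylation onto the new strand, was at 0.10 ± 0.084 (SE, adjusted p = 0.745), with an upper 95% bound of 0.27.

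**Figure D4:**
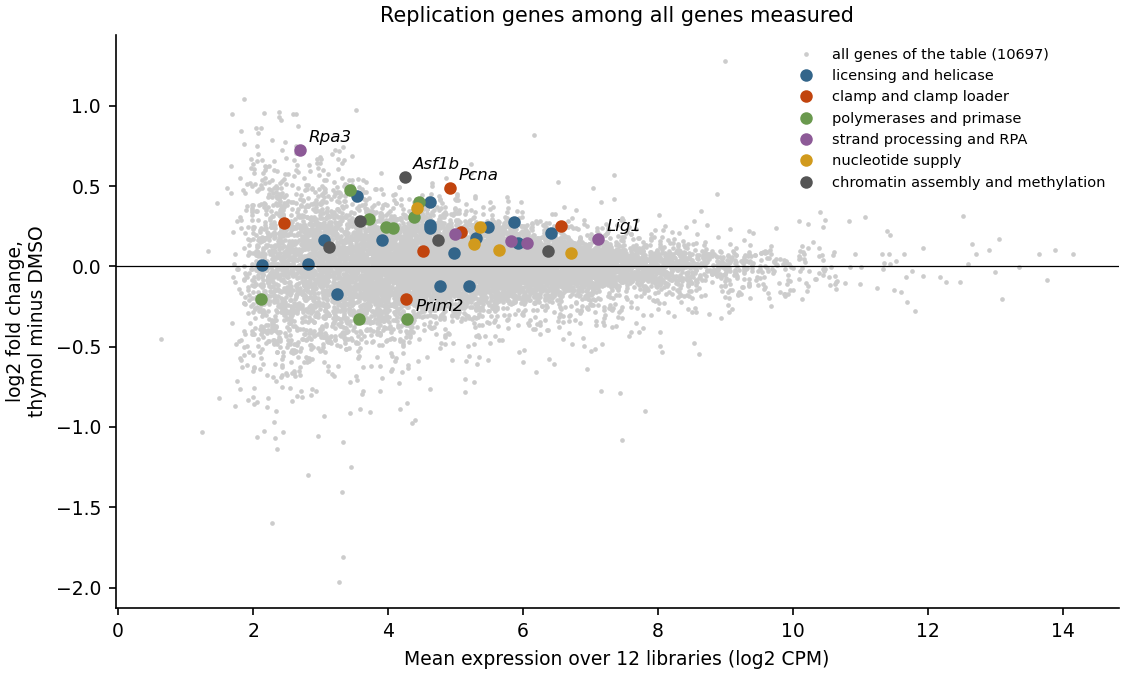
Mean expression over the 12 libraries (horizontal axis, log2 CPM) against the log2 fold change, thymol minus DMSO (vertical axis), for all 10697 genes (grey) and the 47 members, coloured by role. Most members lie a little above the line at 0, and Rpa3, Asf1b, Pcna, Lig1 and Prim2 are labelled.

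The precision of the fit set what could be called. Over the 47 members the standard error of the log2 fold change ran from 0.070 to 0.32, and the change needed for a call ran from 0.24 to 1.11 with a median of 0.49. For 32 members the upper 95% bound was below a 1.5-fold rise, and for 28 the whole interval lay within 1.5-fold in either direction. Only Rpa3 had an estimate above 1.5-fold. The members not called are thus not shown to be unaffected, while large changes of most of them were outside their intervals. The lowest read number of a member in any library was 16, and 45 members reached 30 reads in at least 6 libraries, the minimum the study states. For 3 members all thymol libraries reached 30 reads and some DMSO libraries did not, and for 2 the reverse held.

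**Figure D5:**
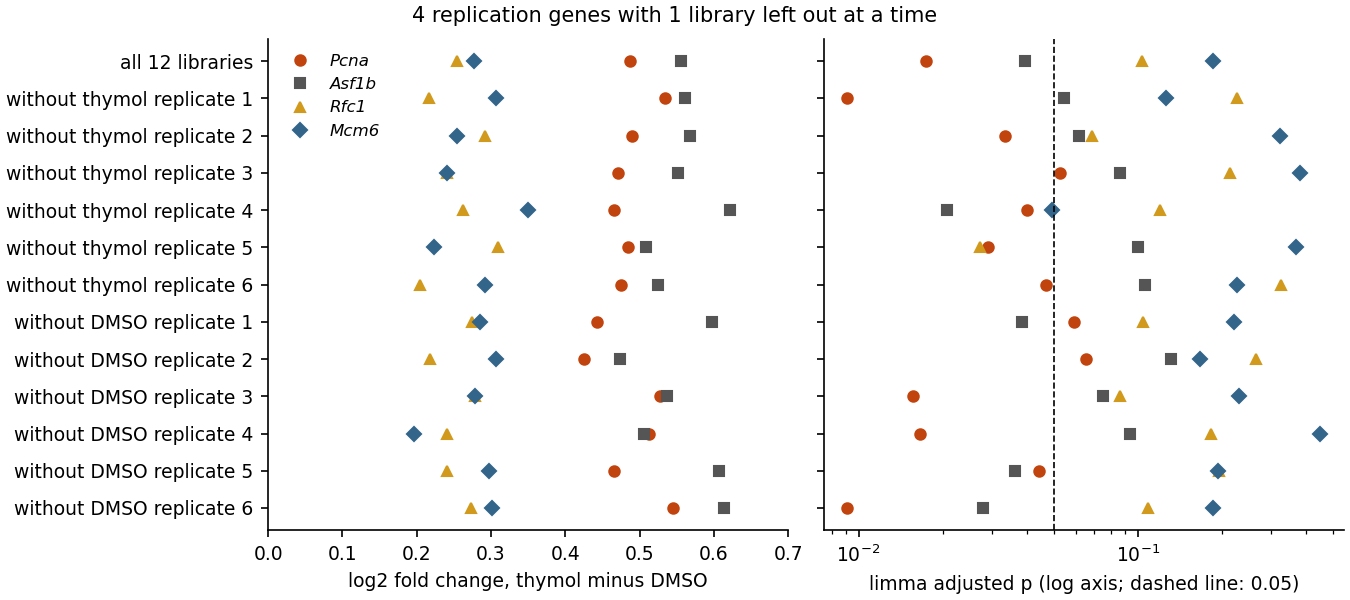
Log2 fold change (left) and adjusted p-value from limma (right, log axis, dashed line at 0.05) of Pcna, Asf1b, Rfc1 and Mcm6 in the fit of all 12 libraries and in each fit that left out 1 library. The fold changes stay above 0 throughout, while the p-values of Pcna and Asf1b cross the line in 3 and 8 of the 12 fits.

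Other genes of the same processes were taken from lists by function. Among 41 measured genes of DNA replication outside the 47, 34 had a higher mean with thymol, 0 were called in limma (8 higher and 1 lower at an unadjusted p-value under 0.05), and the median log2 fold change was 0.14. Pclaf, the PCNA-associated factor, was at 0.30 ± 0.098 (SE, adjusted p = 0.0937), Nasp, a histone chaperone, at 0.27 ± 0.086 (SE, adjusted p = 0.0978), and Dbf4, the activator of the Cdc7 kinase, at 0.31 ± 0.11 (SE, adjusted p = 0.135). Among 32 other nucleotide supply genes, 21 were higher, 0 were called (4 higher and 2 lower unadjusted) and the median was 0.078. Their smallest p-values belonged to Mthfd2 at 0.22, Dctpp1 at 0.40 and Shmt2 at 0.22. Among 29 regulators of S-phase entry, 17 were higher, 0 were called (1 higher and 0 lower unadjusted) and the median was 0.057. The smallest p-values belonged to Tfdp1, the partner of E2F factors, at 0.32, the cyclin gene Ccne1 at 0.21 and the phosphatase gene Cdc25a at 0.20. The E2F genes themselves lay on both sides of 0. E2f1, E2f2 and E2f3 were at -0.035, -0.026 and -0.084, and E2f5, E2f6 and E2f8 at -0.24, -0.15 and -0.0091. E2f4 was at 0.078 and E2f7 at 0.13.

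Genes of the mitosis list mostly had higher means as well. Of the 42 measured genes of this list 39 were higher, with a median log2 fold change of 0.19 and 1 call (2.38%, beside 2.22% of all genes). The called gene was Plk4, the kinase of centriole duplication, which rose by 0.69 ± 0.19 (SE, adjusted p = 0.0410 in limma). Its call was kept in 4 of the 12 fits that left out 1 library. The 6 thymol values of Plk4 lay above the 6 DMSO values, and groups that did not overlap were found for 1.68% of all genes. The same held for Rnaseh2c of the other replication genes, Nme1 of nucleotide supply and Mdm2 of the p53 targets, which were not called. Averaged over the list, expression was 4.78 ± 0.071 in thymol and 4.57 ± 0.042 in DMSO libraries (SD, 6 of each), and every thymol library lay above every DMSO library.

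The 250 bases before the transcript start were searched for 3 motifs on both strands, with overlapping matches counted separately. For 39 of the 47 members RefSeq promoters were available in the table used, and they were not at hand for Mcm4, Pole, Gins1, Gins2, Gins4, Gmnn, Rfc2 and Prim2. The E2F core (TTNNCGC, each N being C or G) was found in 17 of 39 members (43.6%), in 16.8% of the promoters of 8529 measured genes, in 37.1% of 35 other replication genes and in 14.3% of 35 mitosis genes. The CCAAT box was found in 25 of 39 members (64.1%), 40.6% of all promoters, 14 of 35 other replication genes and 26 of 35 mitosis genes (74.3%). The CHR letters (TTTGAA or TTCGAA) were found in 9 of 39 members (23.1%), 14.4% of all promoters, 17.1% of the other replication genes and 37.1% of the mitosis genes. In the sequences printed above, Mcm6 held 4 overlapping E2F core matches at 2 places, while Pcna, Asf1b and Rfc1 held none in this window. Asf1b held 4 CCAAT boxes, Mcm6 held 2, and Pcna and Rfc1 held 1 each. Asf1b also held 1 CHR match, which is not marked in capitals, and Pcna, Rfc1 and Mcm6 held none. A match describes letters only and shows neither binding nor a link to the values above.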

How the data were processed

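RNA of 12 samples labelled as primary mouse adult fibroblasts (6 thymol, 6 DMSO) was sequenced by QuantSeq 3′ (forward kit). According to the methods and the submitters' processing notes, the authors aligned reads to GRCm38 with STAR 2.5.3, counted them per gene with HTSeq 0.6.1, required 30 or more reads of a gene in 6 or more samples, and scaled libraries by TMM. The deposited values are log2 CPM with a prior count, for 10697 genes in 12 columns, and 0 columns were left unmapped. Undoing the logarithm recovered whole reads (for values below 200 reads, 100% were whole to within 0.02), the prior was 1.96 reads on average, and 98.0% of genes met the stated minimum. The prior shrinks the fold changes of thinly counted genes. Reads are PCR products, so read numbers speak of counting error only.

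Since the deposited values are not counts, the count model of the study was not used. limma 3.58.1 in R 4.3.3 (lmFit; eBayes with trend; 2 groups; no covariate) was fitted to all genes and libraries, with two-sided p-values adjusted by Benjamini-Hochberg over 10697 genes and a threshold of 0.05. Every adjusted p-value comes from limma. Means of roles or lists carry no test. Named were members past the threshold, the 3 members with the smallest p-values and the one with the lowest fold change in each role, and in other lists called genes or else the 3 with the smallest p-values; further members are given by value to account for each complex. Cdc6 and the E2F genes are described further after their values were seen. Members and lists were chosen with earlier results of these data known. Gene coordinates are GENCODE vM21. Alternatives were the variance model, robust shrinkage, voom on the recovered reads, pseudocounts of 1 and 10 CPM, a level filter, quantile or median scaling, a replicate block, odd or even library numbers, and leaving out each library. Plots used matplotlib 3.10.9.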

Additional observations from a re-analysis of the deposited data

Results flagged for a closer look

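In each group of 6 libraries, single values far from the other 5 were sought for the 24 named members and the 7 means of roles and of all members (62 groups), and 4 were found, where chance gives about 3.1 (1 in 20). Pcna was 4.93 log2 CPM in thymol replicate 1, below 5.15 to 5.27 in the other thymol libraries, and its log2 fold change without that library was 0.53. Mcm6 was 5.31 in DMSO replicate 4, below 5.72 to 5.87 in the other DMSO libraries, and without that library its log2 fold change was 0.20. The mean of the licensing and helicase genes was 4.55 in DMSO replicate 2, above 4.37 to 4.44 in the others. The mean of the chromatin assembly and methylation genes was 4.05 in DMSO replicate 4, below 4.30 to 4.42 in the others. The causes were not tested.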

How the results depend on the processing

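The 2 member calls were also made by limma with robust shrinkage, with voom on the recovered reads, with pseudocounts of 1 and 10 CPM, with quantile or median scaling and with a term for odd against even library numbers. The count of called members was 0 without the mean-variance trend, 0 in odd-numbered and 0 in even-numbered libraries alone (3 against 3), and 0 among the 16 members with a mean of at least 5, a filter that removes Pcna and Asf1b themselves. Leaving out 1 library gave 0 to 3 called members, with 0 without thymol replicate 3 or DMSO replicate 2. For all genes the 238 calls became 57 without the trend and 70 in odd-numbered libraries, and ranged from 172 to 270 with 1 library left out. Among the 164 distinct genes of the lists for other replication genes, other nucleotide supply, S-phase regulators, mitosis and p53 targets (cell type markers not counted), the 1 call became 2 with robust shrinkage, 2 with a pseudocount of 10 CPM, 3 with the odd or even term, 0 in odd-numbered and 2 in even-numbered libraries, and 0 to 5 with 1 library left out.

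The correlations of same-numbered deviations from the group means ran from -0.051 to 0.27. For thymol replicates 3 and 4 the DMSO library of the same number was the closest match, and for the others it was not. Whether equal replicate numbers pair the libraries was not tested and is not settled by these values. With the replicate number as a block, 3 members were called (Rfc1 in addition, adjusted p = 0.0405 in limma), 332 of all genes (3.1%) and 4 of those 164 genes.

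Of 563 alternative values of the named members 540 kept their direction and side of the threshold. Only Pcna and Asf1b were called to begin with, so for the other named members this mostly means staying uncalled. The 17 values that lost a call all belonged to Pcna and Asf1b. Another 3 values, of Rfc1 or Mcm6, gained a call. The sign changed for a further 3 of the 563 values, all in odd-numbered libraries alone: Mcm10 to 0.027, Rfc2 to -0.0030 and Tk1 to -0.013. The sign of 44 of 47 members was the same in every fit that left out 1 library, and 37 had the same sign in odd-numbered and even-numbered libraries. The mean difference of all members stayed between 0.16 and 0.19 with 1 library left out, and the number of members with a higher mean stayed between 38 and 40 in every setting that tested all 47. The causes of these dependencies were not tested.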

Other observations

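Of 22 measured p53 target genes, which respond to DNA damage, 14 were higher and 0 were called in limma (2 higher and 1 lower at an unadjusted p-value under 0.05), with a median log2 fold change of 0.020. Plk2 was at 0.24, Mdm2 at 0.13 and Fas at -0.39, and the list averaged 5.55 ± 0.038 in thymol and 5.53 ± 0.076 in DMSO libraries (SD, 6 of each). Among the 14 fibroblast markers measured 10 had lower means and 4 higher with thymol (7 lower and 1 higher at an unadjusted p-value under 0.05). The 2 called in limma (14.3%, beside 2.22% of all genes) were the collagen genes Col3a1 and Col1a1, which fell by 0.54 and 0.28 on the log2 scale. Pdgfra, the gene of a growth factor receptor, was at 0.33 (adjusted p = 0.281), with 5 thymol libraries above every DMSO library. Pdgfra was chosen after its values were seen. Of the 20 macrophage markers 1 was called higher and 1 lower in limma (10%). Ctss, a lysosomal protease gene, rose by 0.26 (adjusted p = 0.000141), and Itgam, an integrin gene, fell by 0.31 (adjusted p = 0.000705). Of the other cell type lists, 2 of 8 endothelial, 1 of 8 keratinocyte, 1 of 8 muscle and 1 of 6 adipocyte markers were measured, and 0 of these were called (1 higher at an unadjusted p-value under 0.05, Fabp4 at 0.25).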
